A study of Mus musculus with 16 samples.

Results

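Spink12, Spink8, Pzp, Spint1 and Spint2 encode inhibitors of proteolytic enzymes, and they were chosen by their array signals, for being high in the mouse epididymis around birth. They account for 5 of the 18193 genes and 6 of the 45101 probe sets in the table. A probe set is a group of short DNA probes on an Affymetrix array that reports 1 transcript or several related ones. Spink12, Spink8, Pzp and Spint1 had 1 probe set each, and Spint2 had 2. The choice used the signals at gestational day 18 and postnatal day 2, so the levels at those stages are described here and not tested.

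RNA from whole epididymides was hybridised to 15 arrays, 3 per stage. The fetal stages were gestational day 12 (gd12), 14 (gd14), 16 (gd16) and 18 (gd18), and the last stage was postnatal day 2 (pnd2). The animals were wild-type CD-1 males, an outbred stock, at Theiler stages 20, 22, 24, 26 and 27. The design text describes both epididymides of a single male per sample, with a different dam for each animal, whereas the labels of the gd12 and gd14 samples name pools of 3. A further array held RNA of 8 whole wild-type newborns of both sexes at postnatal day 0.5, with no strain in the labels. All RNA went through 2 rounds of amplification. The comparisons asked how each stage differed from the one before it.

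Serine proteases cut other proteins, and inhibitors that resemble a substrate block them. The Spink genes encode small secreted inhibitors with a Kazal domain, and Spink8 and Spink12 are known from the adult mouse epididymis. Spint1 and Spint2 encode membrane-bound inhibitors with Kunitz domains, also called HAI-1 and HAI-2. In epithelia they restrain matriptase (St14), hepsin (Hpn), prostasin (Prss8) and the activator of hepatocyte growth factor (Hgf), whose receptor is Met. Pzp is the large alpha-macroglobulin of mouse plasma, made mainly by the liver, which traps proteases of many kinds and is cleared through the receptor Lrp1. In the epididymis such inhibitors are known as part of the fluid that surrounds maturing sperm.

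The array of pnd2 replicate 3 stood apart from the other 14 epididymis arrays. Its ratio of 3' to 5' Gapdh signal was 63.2, and on the others that ratio was between 4.33 and 7.18. For Actb the ratio was 80.7, against 2.40 to 4.14. Values of the 5 inhibitors that rest on this array are given with and without it. Among the other inhibitor and protease genes, calls that ended or were gained without it are named. Changes of named genes that it moved by over 1.5 times are also given. All 14 epithelial duct markers on the array, of a list of 16, passed the filter on dim probe sets. Their summed signal ran from 8498 to 10468 at gd12, from 13666 to 15022 at gd14, from 11173 to 15103 at gd16, from 18677 to 19781 at gd18 and from 28744 to 31888 at pnd2. The sum of 8 testis markers ran from 4288 to 7429 at gd12 and from 176 to 470 at pnd2. The 5 skeletal muscle markers summed to 6452 on pnd2 replicate 2 and to between 136 and 609 on the other 14 epididymis arrays. In whole organs, fewer cells of a type and less RNA per cell cannot be told apart.

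Of the 5 inhibitor genes, the Kazal genes Spink12 and Spink8 and the macroglobulin gene Pzp had their highest 3 signals on the 3 pnd2 arrays. Spint2 did so with 1 of its 2 probe sets. Spint1 showed a modest gradient in which the pnd2 arrays overlapped those of gd18. Array by array, every pnd2 signal thus lay above every fetal signal for Spink12, Spink8, Pzp and 1 Spint2 probe set. That was not so for Spint1 or the other Spint2 probe set. Since the genes were chosen by their gd18 and pnd2 signals, this order describes the choice. Signals are relative within a probe set, on the linear scale on which the table gives them, and are not compared between genes.

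**Figure D1:**
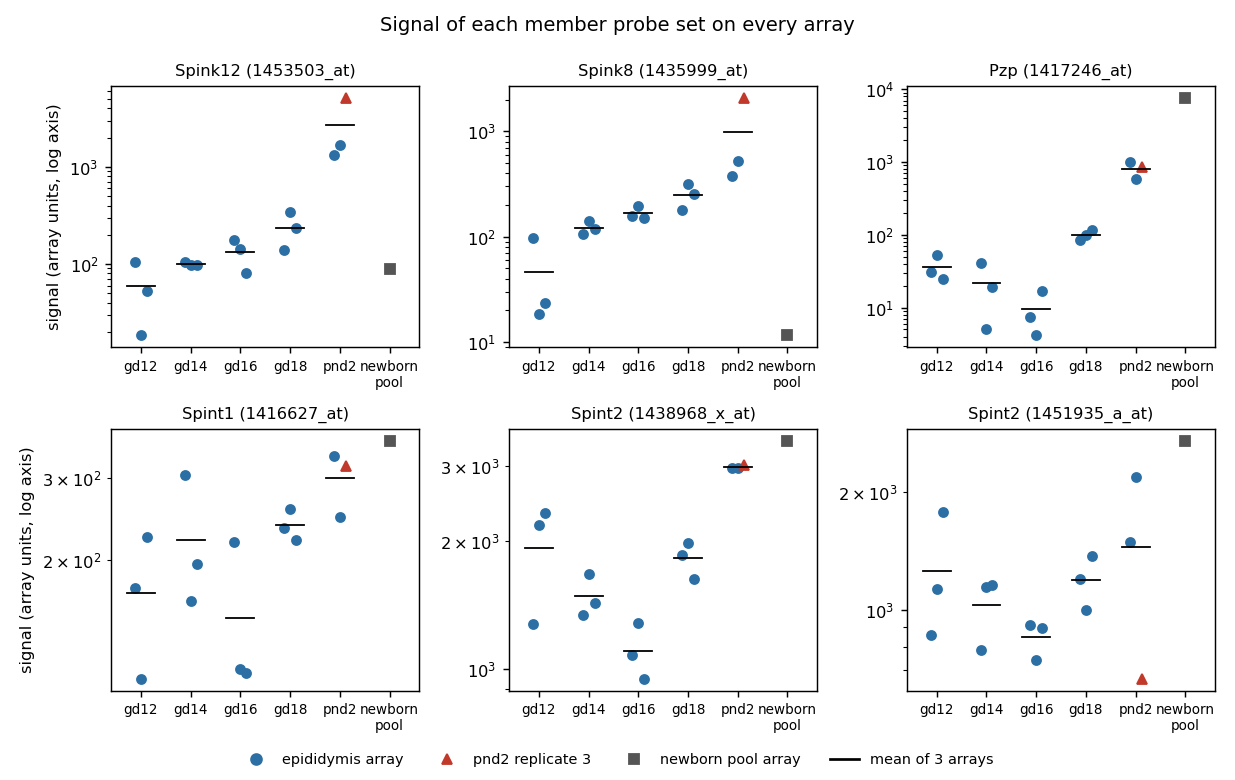
Signal of the 6 probe sets on each array (array units, log axis) by stage, with the newborn pool at the right; points are arrays, bars are means of 3 arrays and the triangle is pnd2 replicate 3. Spink12 lies between 1311 and 5110.1 at pnd2 and no higher than 340.3 at all earlier stages, whereas Spint1 at pnd2 overlaps gd18.

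Spink12 (1453503_at) had signals of 106, 18.4 and 52.4 at gd12, of 105, 98.2 and 97.3 at gd14, and of 175, 143 and 80.4 at gd16. At gd18 they were 138, 340.3 and 234. The 3 pnd2 arrays gave 1311, 1691 and 5110.1. Each pnd2 array lay far above every fetal array, and ranges of neighbouring fetal stages overlapped. The stage means were 59.0 ± 44.3, 100.05 ± 3.97, 133 ± 48.1, 238 ± 101 and 2704 ± 2092 (SD, n = 3 each) from gd12 to pnd2. The large SD at pnd2 came from replicate 3, which was 3.40 times the mean of the other two. Without it the pnd2 mean was 1501 (n = 2), and pnd2 still lay above gd18 by 2.65 ± 0.46 (SE) on the log2 scale, against 3.24 ± 0.52 with all arrays. From gd12 the difference to pnd2 was 5.10 ± 0.52, and 4.51 ± 0.46 without replicate 3. The log2 scale here is that of log2(signal + 16), which understates the change of a dim probe set.

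Spink8 (1435999_at), the second Kazal gene, followed a steadier course. It had signals of 97.5, 18.7 and 23.4 at gd12, of 107, 139.9 and 118 at gd14, and of 156, 196 and 151 at gd16. At gd18 they were 179.8, 318 and 255, and at pnd2 378, 526 and 2065. Each stage mean was above the one before it, at 46.5 ± 44.2, 122 ± 16.7, 167 ± 24.7, 251 ± 69.3 and 989.5 ± 934 (SD, n = 3 each). Only gd16 and gd18 overlapped among neighbouring stages. The pnd2 mean rested on replicate 3, which was 4.57 times the mean of the other two. Without it the pnd2 mean was 452 (n = 2), and the difference from gd18 was 0.83 ± 0.42 (SE) on the log2 scale, against 1.55 ± 0.54 with all arrays. The difference between pnd2 and gd12 was 3.10 ± 0.42 without that array and 3.83 ± 0.54 with it.

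The intervals before gd18 were not used to choose the genes. Spink8 was higher at gd14 than at gd12 on all arrays, by 1.35 ± 0.54 (SE) on the log2 scale. That change did not pass the threshold of an adjusted p under 0.05 with all 15 arrays (limma, adjusted p = 0.123). It did so in the limma fits without pnd2 replicate 3 (adjusted p = 0.0131, where 29.8% of all genes passed) and without gd12 replicate 13 (adjusted p = 0.0344). The array gd12 replicate 13 held the highest Spink8 and Spink12 signals of its stage. Spink12 differed by 0.81 ± 0.52 between gd14 and gd12, with no test. It lay below the median of its array on all gd12 and gd14 arrays and on gd16 replicate 9. Spink12 therefore passed the filter on dim probe sets only with the help of the gd18 and pnd2 arrays.

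Pzp (1417246_at), the plasma macroglobulin gene, was dim through most of fetal life. Its signals were 31.2, 53.2 and 24.6 at gd12, 40.6, 5.16 and 19.2 at gd14, and 7.35, 4.14 and 17.0 at gd16. At gd18 they were 85.6, 98.8 and 117, and at pnd2 996, 585 and 847. All 12 fetal signals lay below the median probe set of their own array, and all 3 pnd2 signals lay above it. Pzp therefore passed the filter on dim probe sets only through the pnd2 arrays. The stage means were 36.3 ± 15.01, 21.6 ± 17.8, 9.49 ± 6.68, 101 ± 16.0 and 809 ± 208 (SD, n = 3 each). Pzp lay higher at gd18 than at gd16 by 2.22 ± 0.40 (SE) on the log2 scale, and higher at pnd2 than at gd18 by 2.80 ± 0.40. Leaving out pnd2 replicate 3 gave 2.75 ± 0.51 for the second of these, and that replicate was 1.07 times the mean of the other two. Pzp thus took the same course on the array that stood apart. The first difference depends on the constant of 16, since the gd16 signals lie at or below that constant on 2 of 3 arrays. It was 3.46 with a constant of 1 and 1.16 with a constant of 64.

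Because Pzp is known as a liver gene, it was set beside 12 liver markers. Their summed signal ran from 363 to 2411 at gd12, from 504 to 4244 at gd14, from 402 to 731 at gd16, from 408 to 461 at gd18 and from 303 to 381 at pnd2. The part of liver RNA in the Pzp signal was not tested. On the newborn array, which contains liver, the same sum was 242950 and Pzp was 7562. Of the 12 liver markers, 3 passed the filter, and 1 of these changed between pnd2 and gd12. Afp (alpha-fetoprotein) fell by 4.18 on the log2 scale, with an SE of 1.12 (limma, adjusted p = 0.0125, and 0.0622 without gd12 replicate 13).

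**Figure D2:**
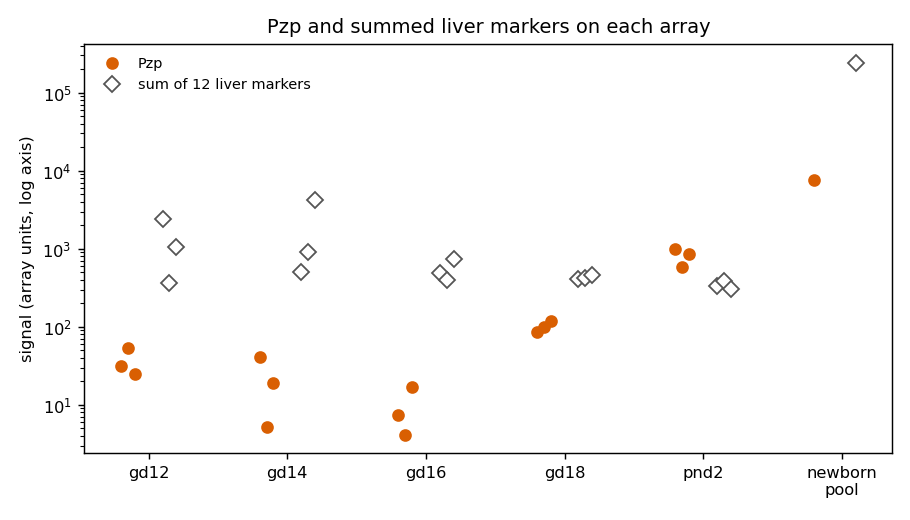
Signal of Pzp (filled points) and the summed signal of 12 liver markers (open diamonds) on each array (array units, log axis) by stage and on the newborn pool. Pzp has its highest epididymis signals at pnd2, from 585 to 996, and the liver sum there runs from 303 to 381. Levels are not compared between Pzp and the sum.

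Promoter sequences of Pzp, Spint1 and Spint2 were matched by symbol in RefSeq, assembly GRCm38.p6. Each covers 250 bases before the gene's start and 50 after it, 5' to 3' on the gene's strand. They are shown because the liver gene and the Kunitz genes differ in base composition and in the motifs they hold. Spink8 and Spink12 are named only. Capitals mark GGGCGG, the GC box, and CAGGTG, an E-box, on either strand (CCGCCC and CACCTG).
Pzp, chr6:128526671-128526970, minus strand: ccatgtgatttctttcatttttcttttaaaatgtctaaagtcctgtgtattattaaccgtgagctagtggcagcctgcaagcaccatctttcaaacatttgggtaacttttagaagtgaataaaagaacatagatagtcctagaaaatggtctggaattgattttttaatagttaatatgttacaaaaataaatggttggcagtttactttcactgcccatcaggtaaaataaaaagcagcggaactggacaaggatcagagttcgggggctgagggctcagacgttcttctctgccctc
Spint1, chr2:119237110-119237409, plus strand: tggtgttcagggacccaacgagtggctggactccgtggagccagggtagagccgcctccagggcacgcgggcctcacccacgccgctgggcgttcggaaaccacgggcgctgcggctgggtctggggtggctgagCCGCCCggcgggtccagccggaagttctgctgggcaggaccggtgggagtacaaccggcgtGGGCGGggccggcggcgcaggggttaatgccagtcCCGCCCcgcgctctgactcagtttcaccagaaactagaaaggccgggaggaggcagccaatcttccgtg
Spint2, chr7:29281928-29282227, minus strand: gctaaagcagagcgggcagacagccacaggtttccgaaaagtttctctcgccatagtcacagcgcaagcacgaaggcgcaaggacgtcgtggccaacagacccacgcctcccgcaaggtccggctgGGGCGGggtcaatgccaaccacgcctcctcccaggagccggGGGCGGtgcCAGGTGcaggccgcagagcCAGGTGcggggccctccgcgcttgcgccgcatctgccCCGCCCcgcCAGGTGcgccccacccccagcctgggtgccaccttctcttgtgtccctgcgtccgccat
The Pzp window holds 4 CpG dinucleotides and neither motif, whereas the Spint1 window holds 28 CpG and the Spint2 window 26. The median over 32851 promoter windows of 300 bases was 7. Spint1 has GGGCGG or its complement starting at -115, -54 and -19 from the gene's start. Spint2 has it at -124, -83 and -18, and CAGGTG at -74, -55 and -9, with no overlap between motifs. GGGCGG occurred in 35.7% of all windows and at least 3 times in 10.7%. CAGGTG occurred in 20.2% and at least 3 times in 0.365%. These matches describe letters in the window and do not show binding.

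Spint1 (1416627_at), which encodes HAI-1, had stage means between 151 and 299 over the 5 stages. Its signals were 174, 112 and 225 at gd12, 303, 164 and 196 at gd14, and 219, 117 and 116 at gd16. At gd18 they were 235, 257 and 221, and at pnd2 333, 247 and 317. The lowest pnd2 array, 247, lay below the highest gd18 array, 257, and all neighbours in the order of stage means overlapped. From gd16, the lowest, through gd12, gd14 and gd18 to pnd2, those means were 151 ± 59.3, 170.4 ± 56.4, 221 ± 73.0, 237 ± 18.4 and 299 ± 45.7 (SD, n = 3 each). Spint1 was higher at pnd2 than at gd18 by 0.31 ± 0.31 (SE) on the log2 scale, and by 0.26 ± 0.33 without pnd2 replicate 3. It was 0.53 after quantile normalization and 0.55 after median centring. That replicate was 1.09 times the mean of the other two.

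Spint2, which encodes HAI-2, had its lowest stage mean at gd16 on both probe sets. On 1438968_x_at, the brighter probe set, its signals were 1275, 2174 and 2328 at gd12, 1343, 1671 and 1429 at gd14, and 1081, 1282 and 950.1 at gd16. At gd18 they were 1857, 1981 and 1625, and at pnd2 2963, 2960.3 and 3018. The 3 pnd2 arrays were close to each other and above all others, the gd16 arrays lay below those of gd14, and gd12 overlapped gd18. The stage means were 1926 ± 569, 1481 ± 170, 1104 ± 167, 1821 ± 181 and 2981 ± 32.6 (SD, n = 3 each). The difference was 0.72 ± 0.21 (SE) on the log2 scale between gd18 and gd16 and 0.71 ± 0.21 between pnd2 and gd18, with 0.70 ± 0.21 for the second without pnd2 replicate 3. Between pnd2 and gd12 it was 0.67 ± 0.21, and 0.66 ± 0.21 without that array. The testis marker sum was highest at gd12, and its part in the Spint2 level there was not tested.

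The other Spint2 probe set, 1451935_a_at, did not follow that course on every array. It had 859, 1130 and 1778 at gd12, 787, 1143 and 1153 at gd14, and 913, 743 and 896 at gd16. It had 1199, 999 and 1375 at gd18, and 1492, 2191 and 665 at pnd2. Replicates 1 and 2 of pnd2 lay above all gd18 arrays and replicate 3 was the lowest of the 15. The pnd2 mean was 1449 ± 764 (SD, n = 3), and 1842 without replicate 3. The 1438968_x_at signal was 4.54 times that of 1451935_a_at on pnd2 replicate 3, against 1.06 to 1.99 times on the other 14 epididymis arrays. Probe sets whose name ends in x_at can bind related sequences, so this signal may include other transcripts. Fitted on its own row, 1451935_a_at was higher at pnd2 than at gd18 by 0.13 ± 0.36 (SE) on the log2 scale, and by 0.61 ± 0.26 without pnd2 replicate 3.

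Early in the series the members did not move together. At gd14, Spink8 alone of the 5 lay above gd12 on all arrays, and no gene lay below. Over all 12239 genes tested, such a separation occurred upwards in 22% and downwards in 20.6%. At gd16, Spink8 lay above and Spint2 below gd14 on all arrays, as did 9.31% and 12.1% of all genes. With limma, Spink8, Spint1 and Spint2 did not pass the threshold between gd14 and gd12, where 12.5% of all genes did. Nor did they between gd16 and gd14, where 0.106% did. At an unadjusted p under 0.05, Spink8 passed between gd14 and gd12, and none of these genes passed between gd16 and gd14. Over all 12239 genes tested, 3184 and 731 passed in these intervals. Between gd14 and gd12, Spint1 differed by 0.35 ± 0.31 (SE) on the log2 scale and Spint2 by -0.33 ± 0.21 (limma, adjusted p = 0.528 and 0.352). Pzp, which was kept only for its pnd2 signals, differed by -0.55 ± 0.40, with no test. Spint2 passed only without gd12 replicate 13, at -0.60 (limma, adjusted p = 0.0421).

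In the late intervals the separation is part of how the genes were chosen, and it is given as a description. Between gd18 and gd16, Pzp, Spint1 and Spint2 lay above on all arrays, beside 12.6% of all genes, and Spink12 and Spink8 overlapped. Between pnd2 and gd18 the 4 genes other than Spint1 lay above, Spint2 on its brighter probe set, beside 10.3% of all genes. Between pnd2 and gd12 all 5 did, Spint2 again on its brighter probe set, beside 17.5%. The other Spint2 probe set overlapped gd12, with and without pnd2 replicate 3. Pzp and the brighter Spint2 probe set thus separated on both sides of gd18, and Spink12 and Spink8 after it but not between gd18 and gd16. For Spink8 the difference after gd18 without pnd2 replicate 3, 0.83, was smaller than the 1.35 between gd14 and gd12. Leaving out pnd2 replicate 3 left these counts the same.

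**Figure D3:**
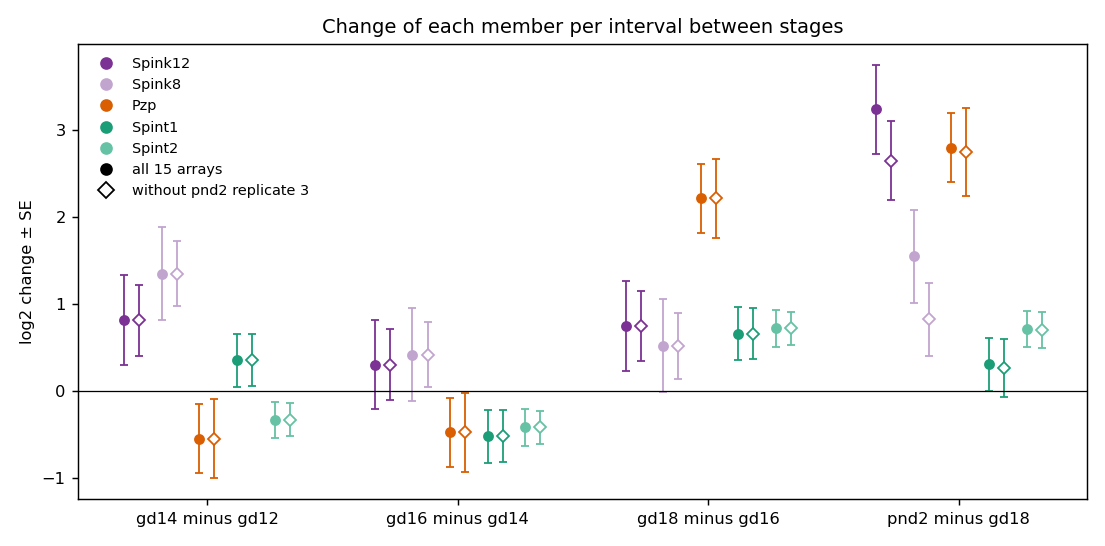
Log2 change (± SE of the fit) of each gene between consecutive stages, later minus earlier; filled points use all 15 arrays and open diamonds leave out pnd2 replicate 3. On the scale shown, Spink12 and Pzp have their largest change between pnd2 and gd18, and the Spink8 value there goes to 0.83 without that replicate. For Pzp this rank depends on the constant added before log2, as does the size of its change just before gd18.

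Against whole newborns the genes fell on different sides. Spink12 averaged 2704 in pnd2 epididymides (range 1311 to 5110.1) against 87.9 in whole newborns, and Spink8 averaged 989.5 (378 to 2065) against 11.6. On the log2(signal + 16) scale, the pnd2 mean was 4.45 above the newborn array for Spink12 and 4.79 above for Spink8. Without pnd2 replicate 3 the differences were 3.86 and 4.07. The Spink8 newborn signal lies below the constant of 16, so its difference depends on that constant. Pzp went the other way, with 809 in pnd2 epididymides (585 to 996) against 7562 in whole newborns, a difference of -3.23, or -3.28 without that replicate. Spint1 and both Spint2 probe sets lay below the newborn level on all pnd2 arrays, with Spint1 and the brighter Spint2 probe set near it. The differences were -0.26 for Spint1, -0.20 for Spint2 on 1438968_x_at and -1.05 on 1451935_a_at, the last of which was -0.57 without replicate 3. The newborn array is 1 sample at another age and of unstated strain, so these differences have no replicate check.

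Genes whose course over the 15 arrays was most like each member were found by Pearson correlation of log2(signal + 16) over 11771 genes, as a description, since arrays share stages. For Spink12 they were Sat1, a polyamine acetyltransferase (r = 0.962), Prxl2c (0.960), Wfdc15b, a WAP-domain inhibitor (0.956), Gab1, an adaptor of receptor kinases such as Met (0.953), and Elovl7, a fatty acid elongase (0.953). For Spink8 they were Fam149a (0.974), Tpm2, a tropomyosin (0.961), Fgf12 (0.960), Mllt3 (0.959) and Sema3c, a secreted semaphorin (0.958). Without pnd2 replicate 3, Sat1 remained among the 5 nearest for Spink12, and Tpm2 and Sema3c for Spink8. The gene nearest to Spink8 over those 14 arrays was Shh, the Hedgehog ligand (r = 0.974). Spink12 and Spink8 were correlated with each other at 0.933 over 15 arrays and at 0.883 over 14.

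The genes nearest to Pzp were Spin2c (r = 0.941), Atp10a (0.933), Myl12b, a myosin light chain (0.932), Slc27a2, a fatty acid transporter (0.930), and Cndp2, a dipeptidase (0.929). For Spint2 they were Manba, the lysosomal beta-mannosidase (0.963), Tmcc3 (0.914), Npl (0.904), Abcc4 (0.896) and Dsg2, a desmosomal cadherin (0.895). The epithelial cadherin Cdh1 was second for Spint2 over 14 arrays (0.930). Spint1 had no near match, with Mid2 (0.857), Fbxo4 (0.825), Cyp2j9 (0.813), Lgals3 (0.812) and Rell1 (0.812) at the top. Without pnd2 replicate 3, 2 of the 5 nearest genes remained for Pzp, 3 for Spint2 and 1 for Spint1. Spint1 and Spint2 (1438968_x_at) were correlated at 0.530, below Pzp and Spint2 at 0.815.

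The proteases that Spint1 and Spint2 restrain had a course that depended on pnd2 replicate 3. St14 (matriptase) had 688, 592 and 57.3 at pnd2, against 227, 119 and 239.8 at gd12. Prss8 (prostasin) had 424, 597 and 86.1 at pnd2, against 161, 54.2 and 202 at gd12. Hpn (hepsin) had 226, 251 and 20.4 at pnd2, against 104, 13.5 and 62.3 at gd12. In each case pnd2 replicates 1 and 2 were above all gd12 arrays and replicate 3 was far below its stage mates. With all arrays none of the 3 passed the limma test between pnd2 and gd12 (adjusted p = 0.472 for St14, 0.136 for Prss8 and 0.326 for Hpn). Without pnd2 replicate 3, St14 rose by 1.68, Prss8 by 1.90 and Hpn by 1.97 on the log2 scale (limma, adjusted p = 0.000542, 0.000961 and 0.0248), in a fit that called 35.7% of all genes, against 27.5% with all arrays. Hgfac, which encodes the growth factor activator that these inhibitors are named for, lay between 14.0 and 86.3 on all epididymis arrays and was too dim to be kept.

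The growth factor and its receptor went opposite ways. Hgf (1442884_at) had 62.2, 90.3 and 10 at pnd2, against 541, 742 and 525 at gd12, and fell by 3.35 on the log2 scale, with an SE of 0.41 (limma, adjusted p = 3.74e-05). The other 2 Hgf probe sets were too dim to be kept, between 6.03 and 126 on all epididymis arrays, so the fall rests on 1 probe set. Met (1434447_at) had 2459, 2329 and 3569 at pnd2, against 327, 86.0 and 608 at gd12, and rose by 3.30 ± 0.46 (limma, adjusted p = 0.000119). For both genes the pnd2 and gd12 arrays did not overlap on these probe sets. The other Met probe set was too dim to be kept, between 2.94 and 75.1 on all epididymis arrays, so the rise rests on 1 probe set. Met also rose between gd14 and gd12, by 1.56 ± 0.46 (limma, adjusted p = 0.0395), a call lost in 10 of the 15 fits that left out 1 array (adjusted p 0.0515 to 0.147) and with median centring (0.0550). Mst1r, the receptor of a related growth factor, rose by 1.28 ± 0.44 between pnd2 and gd12 (limma, adjusted p = 0.0436), a call lost in 13 of those 15 fits (adjusted p 0.0509 to 0.170). Tmprss13, a membrane serine protease, fell by 2.82 on the log2 scale. It passed the filter on dim probe sets only through the gd12 arrays, where it lay between 143 and 348, so no test is given. Of the 11 genes tested in the list of Hgf activation and matriptase, 2 rose and 2 fell, Tmprss13 among the falls, beside 14.4% and 13.1% of all genes. The fit without pnd2 replicate 3 called 6 of them higher (St14, Hpn, Prss8, Met, Mst1r and the sodium channel subunit gene Scnn1a) and 2 lower. The median log2 change of that list was 1.47 without that array, beside 0.00 for all genes tested, and 1.03 with all arrays, beside -0.07.

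**Figure D4:**
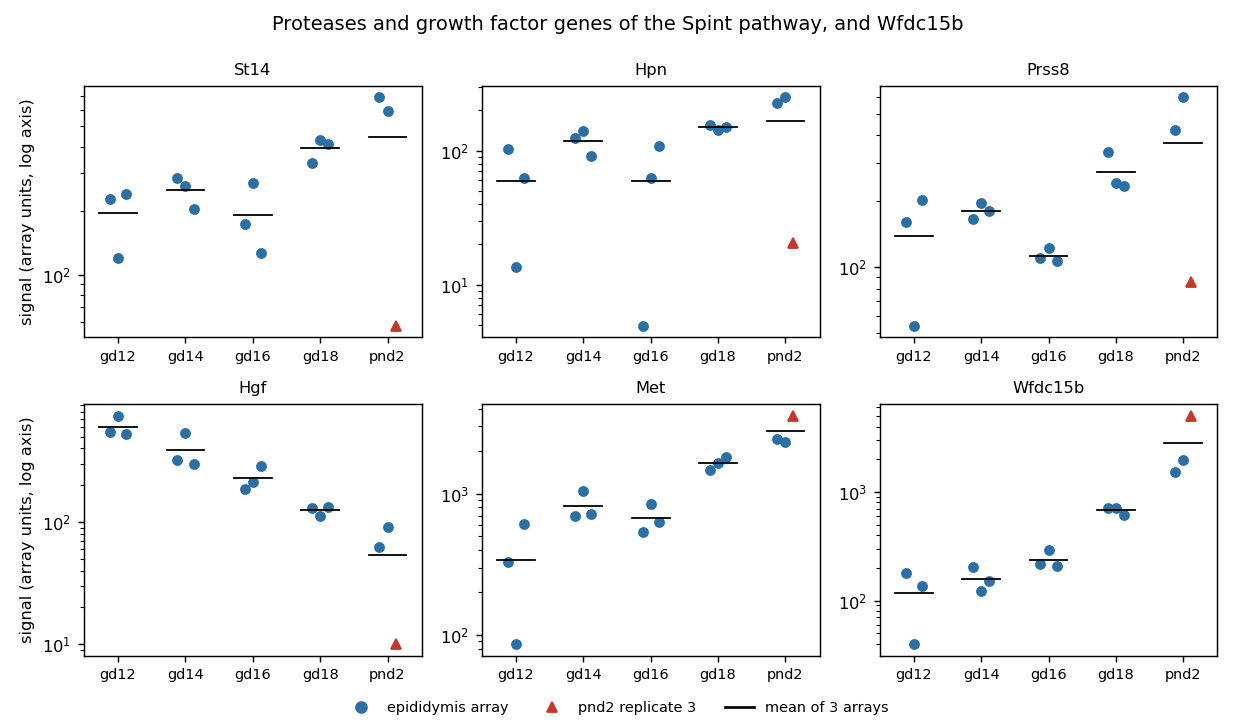
Signal (array units, log axes) of St14, Hpn, Prss8, Hgf, Met and Wfdc15b on the 15 epididymis arrays by stage; points are arrays, bars are means of 3 arrays and the triangle is pnd2 replicate 3. Hgf goes down and Met up over the stages, and St14, Hpn and Prss8 are low on pnd2 replicate 3 alone among the pnd2 arrays.

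Among other inhibitors, the WAP-domain gene Wfdc15b was among the 5 nearest to Spink12. It had 1527, 1973 and 5036 at pnd2, against 178, 39.6 and 135 at gd12, and rose by 4.41 ± 0.45 on the log2 scale (limma, adjusted p = 6.37e-06). Its value on pnd2 replicate 3 was the highest, as for Spink12 and Spink8. Wfdc15b was also higher at pnd2 than at gd18 on all arrays, by 1.85 ± 0.45, which did not pass the test (limma, adjusted p = 0.0750). Wfdc1 rose by 3.33 ± 0.27, Eppin, a sperm-coating inhibitor with WAP and Kunitz domains, by 1.44 ± 0.45, and Wfdc2, an epididymal secretory protein in humans, by 1.14 ± 0.33 (limma, adjusted p = 7.10e-07, 0.0301 and 0.0200). Without gd12 replicate 14 the adjusted p was 0.0935 for Eppin and 0.0890 for Wfdc2, and Eppin was also lost without pnd2 replicate 1 or 2 (0.0635 and 0.0698). Cst9, a testis cystatin, fell by 5.61 on the log2 scale (limma, adjusted p = 0.000230). These were the 4 rises and 1 fall among 12 genes tested in the list of cystatins and WAP-domain inhibitors, beside 14.4% and 13.1% of all genes.

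The other families gave mixed counts between pnd2 and gd12, where 14.4% of all genes rose and 13.1% fell. Of 7 Kunitz-domain genes, 4 rose, among them the collagen gene Col6a3 by 2.99 ± 0.19 (SE) on the log2 scale and App by 0.62 ± 0.10 (limma, adjusted p = 7.16e-08 and 0.000536), with Tfpi and Tfpi2 besides. The call of Tfpi was lost in 2 of the 15 fits without 1 array, those without gd12 replicate 15 or pnd2 replicate 1, and that of Tfpi2 in 10 (adjusted p up to 0.0924 and 0.101). When pnd2 replicate 3 was left out, Tfpi2 was lost (limma, adjusted p = 0.0999) and Wfikkn2 gained, at 1.44 against 0.22 with all arrays (limma, adjusted p = 0.00479 and 0.850). Of 2 Kazal-domain genes, Reck, a membrane inhibitor of matrix proteases, rose by 0.97 ± 0.19 (limma, adjusted p = 0.00177). In the macroglobulin family, A2m rose by 1.42 ± 0.41 (limma, adjusted p = 0.0194, and 0.0766 without gd12 replicate 13). A2m had 56.4, 110 and 117 at pnd2, against 11.7, 33.8 and 29.6 at gd12, and its highest signal, 375, lay at gd16, where the range of 140 to 375 overlapped that of 167 to 266 at gd18. The A2m signals were thus not highest at pnd2, whereas those of Pzp were. Lrp1, the receptor that clears macroglobulins, rose between gd14 and gd12 by 1.23 ± 0.36 (limma, adjusted p = 0.0373, lost in 10 of the 15 fits without 1 array at up to 0.160) and had 0.28 ± 0.36 between pnd2 and gd12 (limma, adjusted p = 0.595). Without pnd2 replicate 3 it passed there as well, at 0.85 (limma, adjusted p = 0.00316). The other kept Lrp1 probe set ran from 307 to 493 at gd12 and from 776 to 884 at gd14. At pnd2 it ran from 416 to 533, which overlapped gd12.

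Of 8 serpin genes, 2 rose and 3 fell between pnd2 and gd12. Serping1, the complement inhibitor, rose by 2.34 ± 0.21 (SE) on the log2 scale and Serpinf1 by 1.49 ± 0.25, while Serpinb6b fell by 3.15, Serpini1 by 2.73 and Serpinb6a by 1.59 on the log2 scale (limma, adjusted p = 1.82e-06, 0.000496, 1.22e-06, 0.000249 and 0.000481). Of 11 secreted and plasma serine proteases, 4 rose and 2 fell. Htra1 rose by 3.16 ± 0.48, Htra3 by 2.82 ± 0.37, Prss23 by 2.36 ± 0.42 and Prss35 by 1.92 ± 0.34, while Klk8 fell by 1.05 and Plat by 0.93 on the log2 scale (limma, adjusted p = 0.000224, 7.43e-05, 0.000766, 0.000886, 0.00302 and 0.00580). Over all 55 such inhibitor and protease genes tested, 18 rose and 8 fell between pnd2 and gd12, again beside 14.4% and 13.1% of all genes, so the falls were near the background. The falls include Tmprss13, which passed the filter only through gd12. Of these 26 calls, 25 remained without pnd2 replicate 3 in the same direction, with log2 changes within 1.41 times of those with all arrays. Besides Tfpi2, which was lost, 7 genes were gained: St14, Hpn, Prss8, Scnn1a, Wfikkn2, Lrp1 and Serpinb1a.

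Among consecutive stages, the calls with all 15 arrays lay in the first interval. Between gd14 and gd12, 11 of the 55 rose and 4 fell, Tmprss13 among the falls, beside 6.71% and 5.74% of all genes. The 55 had 0 calls in either direction between gd16 and gd14, between gd18 and gd16 and between pnd2 and gd18, with limma, where 0.106%, 0.327% and 0.596% of all genes were called. At an unadjusted p under 0.05 there were 7, 14 and 12 of the 55 genes in these intervals, beside 731, 905 and 2310 of all 12239 genes tested. Without pnd2 replicate 3, 7 genes were gained between gd14 and gd12, in a fit that called 29.8% of all genes. Tfpi, Wfikkn2, Serpinb9, Klk8 and Htra1 were higher at gd14, and Cst3 and Cst9 lower. In the 3 later intervals the calls without that array were Htra3 up and Prss23 down between gd16 and gd14, Wfdc15b up between gd18 and gd16, and Serpinb6b down between pnd2 and gd18. The background percentages were then 1.16%, 1.75% and 1.96%.

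Markers of several cell types were higher at pnd2 than at gd12, over the interval in which the inhibitors were. Among 14 duct markers tested 9 rose, as did 4 of 5 smooth muscle and 4 of 5 leukocyte markers, beside 14.4% of all genes. The median log2 changes were 1.38, 3.97 and 1.78. The counts were 10, 5 and 5 without pnd2 replicate 3, with Krt19, Cldn7 and Elf3 gained and Cdh1 and Emx2 lost among the duct markers. The smooth muscle sum ran from 2197 to 4570.2 at gd12, from 7589 to 11858 at gd14, from 20546 to 24398 at gd16, from 37173 to 38693 at gd18 and from 41444 to 50699.5 at pnd2. The leukocyte sum ran from 1608 to 3787 at gd12, from 5647 to 7649 over gd14, gd16 and gd18, and from 6745 to 11200.1 at pnd2. The duct and smooth muscle sums at gd14 were already above those at gd12.

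Ehf, an epithelial transcription factor, had 1489, 1435 and 2469 at pnd2, against 13.7, 5.56 and 4.03 at gd12, and rose by 6.23 ± 0.27 (SE) on the log2 scale (limma, adjusted p = 1.71e-09). Epcam, a surface protein of epithelial cells, rose between gd18 and gd16 by 1.07 ± 0.20 (limma, adjusted p = 0.0344), as did Ehf by 1.55 ± 0.27 (limma, adjusted p = 0.0257). The Epcam call was lost in 9 of the 15 fits without 1 array and the Ehf call in 5 (adjusted p up to 0.212 and 0.139). Of the 9 duct markers that rose between pnd2 and gd12, Cdh1, Cldn3 and Emx2 lost their call in at least 3 of the fits without 1 array. The part of these cell type shifts in the levels of the inhibitors was not tested.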

How the data were processed

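The authors deposited a linear intensity for each probe set from GCOS, the Affymetrix scanner software, per the submitters' processing notes. Signal algorithm, version and detection calls: not given in the sources used here. Trimmed means (2% of probe sets off each end) were 500.0 on every array, as after scaling by a single factor, and medians ran from 81.2 (pnd2 replicate 3) to 134. No further normalization was applied. Of 45101 probe sets, 34945 carried 1 gene symbol, 932 several, and 9160 were not listed.

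The fit used log2(signal + 16). Probe sets that reached the array median on 3 or more epididymis arrays were kept (25981), and the brightest stood for its gene (12239 genes). All 6 probe sets of the 5 inhibitors were kept. The 5 stages of 3 arrays were fitted with limma 3.58.1 in R 4.3.3 (1 mean per stage, eBayes with trend) and compared in 5 contrasts, adjusted by Benjamini-Hochberg over all genes within each, with calls at an adjusted p under 0.05. The number of arrays limits the precision. The fit was tested on simulated data. The labels give no batch. No p is given for the inhibitors in the intervals for which they were chosen, or for the newborn array, which is 1 sample. Pzp, Spink12 and Tmprss13 have no p in any interval, because they passed the filter through the stages where they were high.

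The members and the gene lists were chosen with earlier results of these data known. Genes named are the 5 inhibitors, the 5 genes most correlated with each, the direct partners (St14, Hpn, Hgfac, Hgf, Met, Prss8, A2m, Lrp1), and up to 6 called genes per list in order of the largest log2 change. Shh, Scnn1a, Wfikkn2, Cdh1, Cldn3, Emx2, Epcam and genes named only for calls without 1 array were added after their values were seen. The alternatives tried were quantile normalization, centring on medians, a constant of 1 or 64, no filter, all kept probe sets fitted as rows of their own, and each array left out in turn. Leaving arrays out and rescaling for the list genes, and leaving out pnd2 replicate 3 for the second Spint2 probe set, were added after seeing the data.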

Additional observations from a re-analysis of the deposited data

How the results depend on the processing

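No paired analysis was possible because the replicate numbers run on across the stages and no number occurs in more than 1 stage. Results for single inhibitors and their comparison with newborns were sorted by direction and, where tested, by their side of the threshold. Where there was no test, a move was a shift of at least 1 SD between arrays. On these rules 519 stayed the same, 8 moved, 3 passed the threshold only with 1 array left out and 0 reversed. Many of the 519 could not change, since leaving out an array of another stage leaves a difference between stages as it was. The SD at pnd2 includes replicate 3 and was 1.27 for Spink8 on the log2 scale. The Spink8 change between pnd2 and gd18, 0.83 without that array, therefore did not count as a move. Spint1 moved between pnd2 and gd18 (0.53 with quantile normalization and 0.55 with median centring, against 0.31). Spint2 moved there as well (0.96 with median centring, against 0.71), and Pzp moved with constants of 1 and 64. The Pzp values were 3.46 and 1.16 between gd18 and gd16, 4.48 and 3.10 between pnd2 and gd12, and 2.38 between pnd2 and gd18 with a constant of 64. Median centring moved the median of all genes between pnd2 and gd18 to 0.19, against -0.05, so the Spint1 and Spint2 changes relative to all genes moved little.

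Counts of genes called depended more on the settings. Between gd16 and gd14 they were 33 with quantile normalization, 8 with a constant of 1 and 29 with a constant of 64, against 13. Between gd18 and gd16 a constant of 1 gave 24, against 40. Between pnd2 and gd18 they were 114 with quantile normalization, 44 with median centring (33 higher and 11 lower, against 32 and 41), 124 with a constant of 64 and 41 with no filter, against 73. Median centring also gave 651 higher and 696 lower between gd14 and gd12, against 821 and 703, and 1981 and 1155 between pnd2 and gd12, against 1762 and 1600. Leaving out each array in turn gave 938 to 3648 genes between gd14 and gd12, 3 to 142 between gd16 and gd14, 6 to 214 between gd18 and gd16, 3 to 240 between pnd2 and gd18 and 2501 to 4365 between pnd2 and gd12, against 1524, 13, 40, 73 and 3362. The highest of each range was reached without pnd2 replicate 3. Without that array, 1 of the 5 nearest genes was shared for Spink12, 2 for Spink8, 2 for Pzp, 1 for Spint1 and 3 for Spint2. The calls among inhibitor and protease list genes without it, an alternative added after seeing the data, were 22, 2, 1, 1 and 32, against 15, 0, 0, 0 and 26. Of these calls, 0 turned direction with quantile normalization or median centring, also added then, and Met and Reck between gd14 and gd12 were lost with median centring. The cause of these moves was not tested.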
